A study of Mustela putorius furo and Mus musculus with 4 samples.

Results

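Expression of 10 basement membrane genes was compared between cultured ferret and mouse astrocytes. The genes encode 7 laminin chains (Lama1, Lama2, Lama4, Lama5, Lamb1, Lamb2 and Lamc1), the nidogens Nid1 and Nid2, and the proteoglycan perlecan (Hspg2). They were taken by gene symbol, without regard to case, from the 13373 symbols present in both species, and each of the 10 had a single value in each library. RNA-seq had been performed on 2 libraries of ferret (Mustela putorius furo) and 2 libraries of mouse (strain ICR) primary astrocytes. The cells came from the cerebral cortex of ferrets on postnatal day 1 and of mice on postnatal days 1 to 3, were expanded as mixed glia for 14 days in medium with 10% serum, shaken to remove loosely attached cells and replated. In both species serum was withdrawn on day 3 after replating and RNA was harvested on day 7. Glial cells of a single ferret pup were spread over several flasks, whereas those of several mouse pups were pooled in a flask. The libraries are labelled as replicates 1 and 2 of each species, and nothing states that they came from separate cultures, so the p-values measure only the spread between these libraries. Species, genome annotation and culture cannot be told apart in this design.

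Basement membranes are thin sheets of extracellular matrix. Laminins are trimers of an alpha, a beta and a gamma chain that assemble outside the cell into a network and bind cell surface receptors through the alpha chain. Collagen IV forms a network of its own, and nidogens and perlecan link the networks. In the brain, basement membranes underlie the pial surface and surround blood vessels, where astrocyte endfeet rest on them, and laminin made by astrocytes is known to contribute to the vascular layer.

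Nidogens attach to laminin through a short loop of the gamma1 chain. The coding sequence of this loop is shown because the gene that carries it and the genes of its binding partners differed in opposite directions between the species. The loop was located by translating the annotated mouse transcripts of GENCODE on GRCm38. The loop occurred 1 time in it, in exon 14 of 28. The printed stretch of 63 bases, which includes flanking codons, lies at chr1:153243340-153243402 on the minus strand. Capitals mark the 7 codons of the loop. The sequence is given 5′ to 3′ on the coding strand, and ferret sequences were not used here.
Lamc1: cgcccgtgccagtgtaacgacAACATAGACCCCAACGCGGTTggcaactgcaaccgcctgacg

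The ferret libraries held more laminin alpha4, alpha1 and gamma1 transcripts and far fewer nidogen transcripts than the mouse libraries. Levels are FPKM as deposited by the authors, that is, fragments counted per kilobase of exon and relative to all fragments mapped, and differences are on the log2(FPKM + 1) scale, which understates changes of low genes. A gene was called at an adjusted p under 0.05 (limma, Benjamini-Hochberg) together with an absolute log2 difference over 1. Of the 10 genes, 3 were called higher in ferret astrocytes (Lama1, Lama4 and Lamc1) and 2 lower (Nid1 and Nid2). Among all 10204 genes tested, 13.1% were called higher and 30.1% lower, or 43.2% in either direction. Of the called genes 30.3% were thus higher, which became 46.9% when the libraries were brought to a common sum of FPKM and 49.8% when they were quantile normalized. All 10 genes passed the adjusted p alone, as did 88.6% of all genes tested, and in all 10 the libraries of the species did not overlap, as in 94.1% of all genes tested. By the adjusted p alone, Lamb1 did not pass without mouse replicate 2 (limma adjusted p = 0.093), and Lamb2 did not without ferret replicate 1 (0.078), mouse replicate 1 (0.200) or mouse replicate 2 (0.129). Nor did Lamb1 without the filter on low values (0.061), Lamb2 in limma without trend (0.076), or Lama5 after rescaling (0.230) and quantile normalization (0.068). The ferret libraries lay above the mouse libraries in 5 of the 10 genes (35.1% of all genes tested) and below them in the other 5 (59.0%). The median log2 difference of all genes tested was -0.35, and it moved to -0.01 and 0.05 under these scalings. Differences of the 10 genes that were not called are therefore given with the rescaled and quantile normalized values. In bulk libraries, fewer cells of a type and less RNA per cell cannot be told apart. The 3 genes called higher and the 2 called lower were called in the same direction under every alternative that was run.

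**Figure D1:**
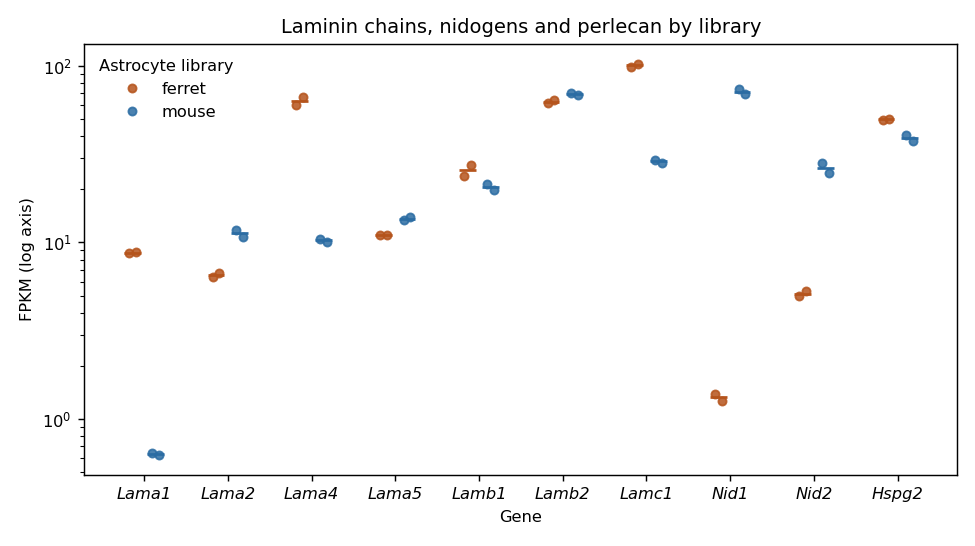
FPKM (log axis) of the 10 genes in the 2 ferret and the 2 mouse astrocyte libraries. Each point is a library and each bar the mean of the 2 libraries of a species; Lama1, Lama4 and Lamc1 stand well above the mouse values in ferret astrocytes, Nid1 and Nid2 well below, and the libraries of a species lie close together.

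Among the alpha chains, Lama4 differed most in absolute level. Lama4 encodes the alpha4 chain, a short alpha chain known from vascular basement membranes and peripheral nerve. Its FPKM was 60.0 and 66.6 in ferret against 10.4 and 10.1 in mouse libraries. Both ferret libraries were thus high and both mouse libraries low, a 6.16-fold ratio of the mean FPKM. On the log2 scale the difference came to 2.51 (standard error 0.069, adjusted p = 5.12e-10 by limma). Set against the median of all genes tested it was 2.86. Its mouse locus is on the plus strand of chromosome 10, 38965515 to 39110188 (GRCm38).

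Lama1 encodes the alpha1 chain, known from embryonic basement membranes and the pial surface of the brain. Its FPKM was 8.70 and 8.82 in ferret against 0.640 and 0.623 in mouse libraries, a 13.9-fold ratio of the means. The groups did not overlap, and the mouse level was under 1 FPKM. Lama1 thus entered the test only through its ferret level. This gave a log2 difference of 2.58 (standard error 0.074, limma adjusted p = 6.75e-10), and 3.60 with a pseudocount of 0.1 instead of 1. In GRCm38 the gene spans 67697259 to 67822647 of chromosome 17 (plus strand).

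Lama2 and Lama5 were not called. Lama2 encodes the alpha2 chain of muscle, Schwann cell and astrocyte-associated basement membranes. Its FPKM was 6.40 and 6.70 in ferret against 11.8 and 10.7 in mouse libraries. The log2 difference of -0.70 (95% interval -0.87 to -0.53) passed the adjusted p but not the limit of 1, and it was -0.35 after rescaling and -0.27 after quantile normalization. Its mouse locus is on the minus strand of chromosome 10, 26980036 to 27619758 (GRCm38), and 631 bp of its exons, 3.86% of their length, overlap the antisense gene Gm48084. Lama5 encodes the alpha5 chain, the widespread alpha chain of mature basement membranes. Its FPKM was 10.9 and 11.1 in ferret against 13.4 and 13.9 in mouse libraries. The log2 difference was -0.29 (95% interval -0.43 to -0.14) as deposited, and its sign turned to 0.08 after rescaling and 0.13 after quantile normalization, so no direction can be given for Lama5. In GRCm38 the gene spans 180176373 to 180225859 of chromosome 2 (minus strand).

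Neither beta chain was called. Lamb1 encodes the beta1 chain, and Lamb2 the beta2 chain known from the neuromuscular junction, the kidney filter and the retina. The FPKM of Lamb1 was 23.7 and 27.6 in ferret against 21.3 and 19.8 in mouse libraries. The log2 difference of Lamb1 was 0.30 (95% interval 0.12 to 0.49) and became 0.68 after rescaling and 0.70 after quantile normalization. Lamb1 thus kept its sign, but its difference stayed under the limit of 1. Lamb2 had 61.7 and 63.7 FPKM in ferret against 69.7 and 68.3 in mouse libraries. The log2 difference of Lamb2 was -0.14 (95% interval -0.27 to -0.01) as deposited, 0.25 after rescaling and 0.17 after quantile normalization, so no direction can be given for Lamb2 either. In GRCm38, Lamb1 spans 31265234 to 31329644 of chromosome 12 and Lamb2 108479736 to 108490530 of chromosome 9, both on the plus strand.

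Lamc1 encodes the gamma1 chain, which is part of most laminin trimers and carries the nidogen-binding loop shown above. Its FPKM was 98.5 and 103 in ferret against 29.4 and 28.3 in mouse libraries, a 3.49-fold ratio of the means without overlap. This gave a log2 difference of 1.77 (standard error 0.059, limma adjusted p = 1.81e-09), and 2.12 relative to the median of all genes. Lamc1 was the highest of the 10 genes in ferret astrocytes and ranked at position 4 in mouse astrocytes. Its mouse locus is on the minus strand of chromosome 1, 153218922 to 153332786 (GRCm38).

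Nid1 showed the largest difference of the 10 genes. It encodes nidogen-1, which bridges the laminin gamma1 chain and collagen IV. Its FPKM was 1.39 and 1.27 in ferret against 73.5 and 68.9 in mouse libraries. Both ferret libraries were near the limit of 1 FPKM, whereas both mouse libraries were high, a 53.6-fold ratio of the mean FPKM, mouse to ferret. This gave a log2 difference of -4.95 (standard error 0.070, limma adjusted p = 1.40e-11), and it ranged from -5.64 with a pseudocount of 0.1 to -4.58 after quantile normalization. Nid1 had the highest mean of the 10 genes in mouse and the lowest in ferret astrocytes. In GRCm38 the gene spans 13437551 to 13512269 of chromosome 13 (plus strand), and 143 bp of its exons, 2.06% of their length, overlap the antisense gene Gm48682.

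Nid2 encodes nidogen-2, which has the same domain plan and overlapping binding partners. Its FPKM was 4.96 and 5.29 in ferret against 28.3 and 24.8 in mouse libraries, a 5.18-fold ratio, mouse to ferret, without overlap. This gave a log2 difference of -2.17 (standard error 0.080, limma adjusted p = 3.50e-09). Both nidogens were thus lower in ferret astrocytes. Its mouse locus is on the plus strand of chromosome 14, 19751265 to 19811787 (GRCm38), and 437 bp of its exons, 8.45% of their length, overlap exons of Rtraf on the opposite strand. The library kit keeps the strand, but whether the quantification used it is not given in the sources used here.

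Hspg2 encodes perlecan, a large heparan sulfate proteoglycan that binds laminin, nidogen and growth factors. Its FPKM was 49.5 and 50.1 in ferret against 40.8 and 37.7 in mouse libraries. The log2 difference of 0.34 (95% interval 0.20 to 0.48) was under the limit for a call, and became 0.72 after rescaling and 0.70 after quantile normalization. Perlecan thus differed 1.27-fold in mean FPKM, beside the far larger ratios of Nid1, Lama4 and Lamc1. In GRCm38 the gene spans 137468769 to 137570630 of chromosome 4 (plus strand).

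**Figure D2:**
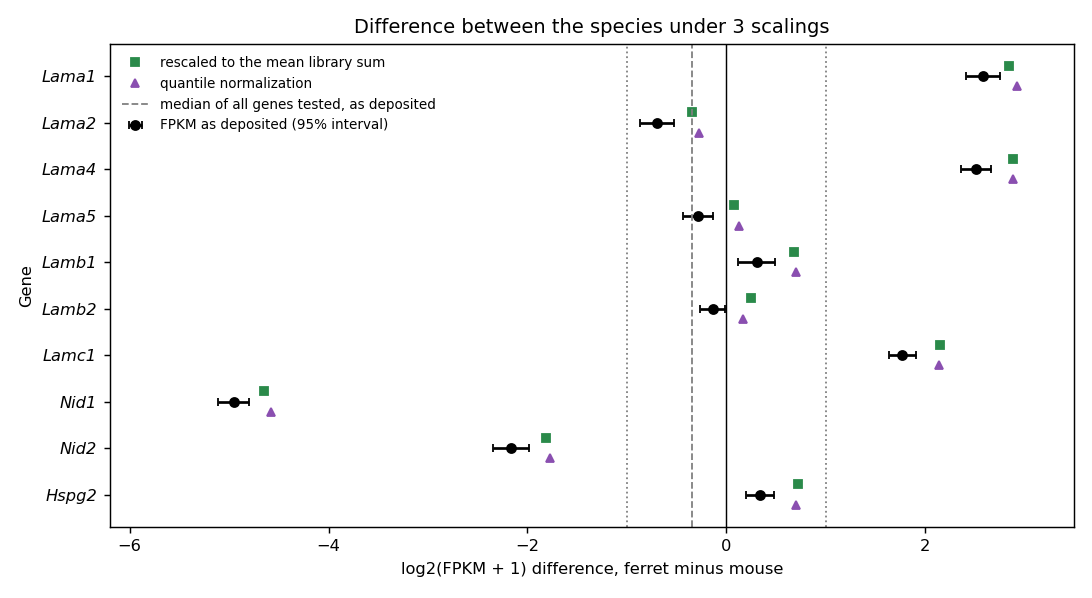
Difference between ferret and mouse astrocytes in log2(FPKM + 1) for each gene. Black points with bars are the values as deposited with their 95% interval from limma, squares the values rescaled to the mean library sum, triangles those after quantile normalization, the dashed line is the median of all genes tested (-0.35) and dotted lines mark the limit of 1; Lama5 and Lamb2 change sign between scalings and the other 8 genes do not.

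The order of the 10 genes differed between the species. Since FPKM is per exon length, levels of different genes can be set side by side on this scale. In ferret astrocytes the order of the mean FPKM was Lamc1, Lama4, Lamb2, Hspg2, Lamb1, Lama5, Lama1, Lama2, Nid2 and Nid1. Only Lama4 and Lamb2 overlapped as neighbours in that order. In mouse astrocytes the order was Nid1, Lamb2, Hspg2, Lamc1, Nid2, Lamb1, Lama5, Lama2, Lama4 and Lama1. There, Nid1 overlapped with Lamb2 and Lamc1 overlapped with Nid2. Lama4 thus stood at position 2 in ferret and position 9 in mouse astrocytes.

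Shares and ratios within a library do not change when libraries are rescaled, though they still depend on the gene models of each species. Of the summed FPKM of the 5 alpha chains, Lama1 to Lama5, Lama4 made up 69.0% and 70.7% in ferret against 28.5% and 28.3% in mouse libraries. Lama5 made up 12.6% and 11.7% in ferret against 36.4% and 38.9% in mouse libraries. Lama2 made up 7.35% and 7.11% in ferret against 32.2% and 29.9% in mouse libraries. Ferret alpha chain transcripts were thus mostly Lama4, whereas mouse transcripts were spread over Lama5, Lama2 and Lama4. Lama1 made up 10.0% and 9.36% in ferret libraries against 1.74% in both mouse libraries.

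Summed FPKM of the alpha chains was 87.1 and 94.2 in ferret against 36.7 and 35.7 in mouse libraries. Lamb1 and Lamb2 together had 85.4 and 91.3 FPKM in ferret against 91.1 and 88.1 in mouse libraries. On FPKM as deposited, the beta chain sums thus overlapped between the species, while the alpha chain sums did not. After rescaling, Lamb1 and Lamb2 had log2 differences of 0.68 and 0.25, so the overlap can depend on the scaling. The sums were not compared on that scale. The summed beta chains stood at 0.867 and 0.886 times the Lamc1 level in ferret against 3.09 and 3.12 times in mouse libraries. Lamc1 therefore exceeded the beta chains in ferret libraries and was exceeded by them in mouse libraries. The share of Lamb1 in the beta chains was 27.8% and 30.2% in ferret against 23.4% and 22.4% in mouse libraries.

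Nidogens together stood at 0.065 and 0.064 times the Lamc1 level in ferret against 3.46 and 3.32 times in mouse libraries. The difference of the log2 ratio of nidogens to Lamc1 was -5.72 between the species, and the values within a species differed far less. Nid1 made up 21.9% and 19.3% of the nidogen FPKM in ferret against 72.2% and 73.6% in mouse libraries. Which nidogen prevailed was therefore reversed between the species. Hspg2 stood at 0.503 and 0.487 times Lamc1 in ferret against 1.39 and 1.34 times in mouse libraries. In all 18 shares and log2 ratios that were compared, the libraries of the species did not overlap, beside 94.1% of all single genes tested. The 18 are not separate, since the Lamb1 and Nid1 shares restate the Lamb1 to Lamb2 and Nid1 to Nid2 ratios. Each of the 18 gave p = 0.333 in an exact two-sided permutation test (0.333 also after Benjamini-Hochberg adjustment). This is the smallest value that 2 libraries against 2 can give, so that this test cannot pass 0.05.

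**Figure D3:**
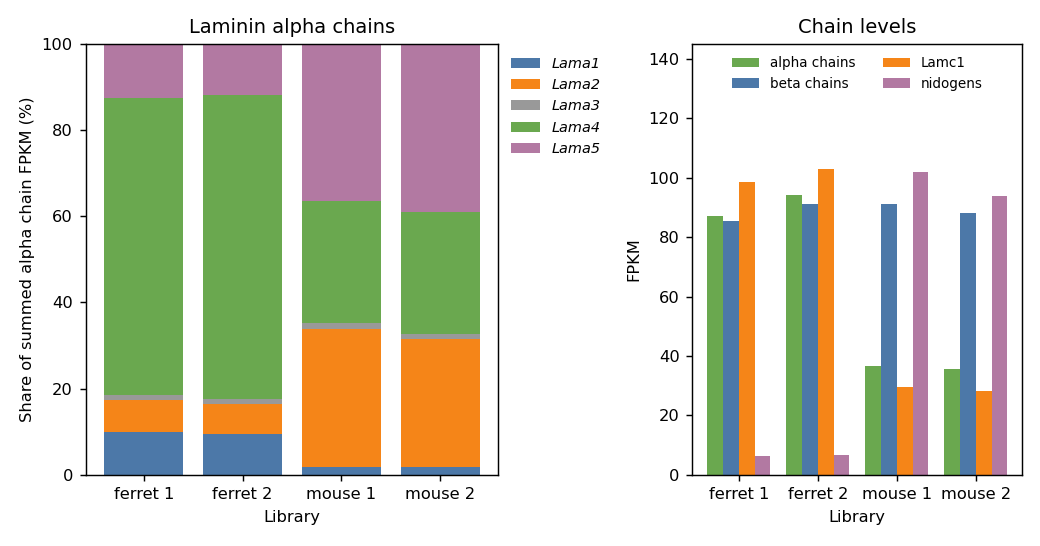
Left, share of each laminin alpha chain in the summed alpha chain FPKM (%) of each library. Right, summed FPKM of the alpha chains (Lama1 to Lama5), beta chains (Lamb1 and Lamb2) and nidogens (Nid1 and Nid2), and FPKM of Lamc1, in each library. On FPKM as deposited, alpha sums and Lamc1 are higher and nidogen sums lower in both ferret libraries, and the beta sums overlap.

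Lama3, Lamb3 and Lamc3 were low in both species. Lama3, the alpha3 chain of epithelia, had 0.982 and 1.04 FPKM in ferret against 0.451 and 0.412 in mouse libraries. Its log2 difference of 0.49 was not called, and was 0.65 after rescaling and 0.79 after quantile normalization. It became 1.06 with a pseudocount of 0.1, which is past the limit. Lamb3 had 0.629 and 0.597 FPKM in ferret against 0.254 and 0.240 in mouse libraries. Lamc3 had 0.052 and 0.101 in ferret against 0.195 and 0.272 in mouse libraries, and like Lamb3 it was under the limit of 1 FPKM for a test.

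Of the 8 chains of collagens IV, XV and XVIII, 7 were tested, of which 3 were called lower (Col4a1, Col4a5 and Col4a6) and 0 higher in ferret astrocytes by limma, with all 7 at an adjusted p under 0.05. Over all genes tested 30.1% were called lower, 13.1% higher, and 88.6% had an adjusted p under 0.05. The median log2 difference of these 7 was -0.66, beside -0.35 for all genes tested. Col4a6 had 0.317 and 0.352 FPKM in ferret against 29.2 and 30.3 in mouse libraries (log2 difference -4.53, adjusted p = 2.95e-11 by limma). Col4a6 thus entered the test only through its mouse level. Col4a5, which forms a network together with Col4a6, had 4.47 and 4.62 FPKM in ferret against 55.3 and 53.4 in mouse libraries (log2 difference -3.32, adjusted p = 6.39e-11). Both chains were thus lower in ferret astrocytes, as were both nidogens.

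Col4a1 and Col4a2 encode the chains of the most widespread collagen IV trimer. Col4a1 had 79.7 and 88.2 FPKM in ferret against 165 and 177 in mouse libraries. Its log2 difference of -1.02 (adjusted p = 2.65e-07 by limma) was just past the limit. It was -0.63 after rescaling, -0.66 after quantile normalization, -0.95 without ferret replicate 1 and -0.97 without mouse replicate 2, and the call was lost each time. Col4a2 had 46.6 and 54.0 FPKM in ferret against 80.7 and 78.5 in mouse libraries, with a log2 difference of -0.66 (95% interval -0.82 to -0.49) that became -0.27 after rescaling and -0.34 after quantile normalization. Col4a1 stood at 0.809 and 0.856 times Lamc1 in ferret against 5.62 and 6.25 times in mouse libraries.

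Of 16 genes of other basement membrane glycoproteins, 14 were tested, of which 8 were called lower and 2 higher in ferret astrocytes, beside 30.1% lower and 13.1% higher over all genes tested. Their median log2 difference was -1.42, and whether the list stands apart from other genes was not tested. The genes with the largest differences were Fbln2, Tinagl1, Fbln1 and Fn1. Fbln2 encodes fibulin-2, a binding partner of nidogen and laminin, and had 2.55 and 2.51 FPKM in ferret against 85.4 and 81.7 in mouse libraries (log2 difference -4.58, adjusted p = 1.23e-11 by limma). Fbln1, which encodes fibulin-1, had 0.073 and 0.053 FPKM in ferret against 18.2 and 18.5 in mouse libraries (log2 difference -4.19, adjusted p = 4.19e-11 by limma). Fbln1 entered the test only through its mouse level. Both fibulins were thus near 0 or low in ferret libraries only.

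Tinagl1, a secreted matrix glycoprotein gene, had 4.17 and 3.65 FPKM in ferret against 92.0 and 89.0 in mouse libraries (log2 difference -4.22). Fn1, which encodes fibronectin, had 57.9 and 50.8 FPKM in ferret against 379 and 350 in mouse libraries (log2 difference -2.72). The 2 genes called higher, named after their values were seen, were Fras1 and Vwa1. Fras1, of the Fraser complex that anchors embryonic epithelia, had 4.59 and 4.67 FPKM in ferret against 0.720 and 0.808 in mouse libraries. Fras1 entered the test only through its ferret level. Vwa1, whose product binds perlecan, had 12.1 and 11.9 FPKM in ferret against 4.10 and 4.86 in mouse libraries.

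**Figure D4:**
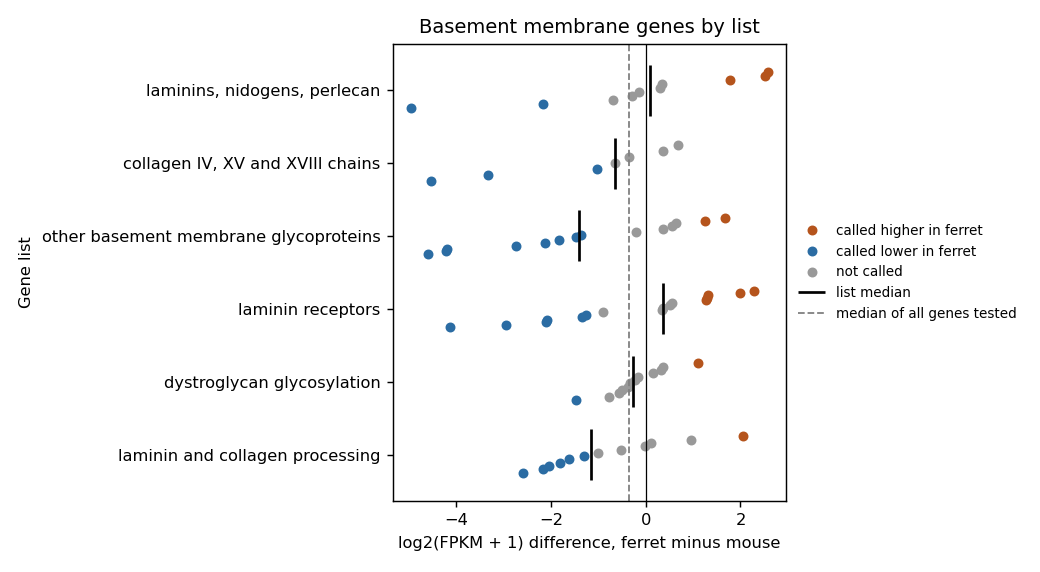
Difference in log2(FPKM + 1) between ferret and mouse astrocytes for the tested genes of each basement membrane list. Each point is a gene, coloured by its call, black bars are list medians and the dashed line is the median of all genes tested. Called genes lie on both sides for the 10 genes (3 higher, 2 lower), the receptors (5 higher, 6 lower) and the other glycoproteins (2 higher, 8 lower). Over all genes tested 13.1% were called higher and 30.1% lower.

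Laminin receptors and their cytoplasmic partners differed in both directions. Of the 16 genes, all tested, 5 were called higher and 6 lower in ferret astrocytes, beside 13.1% higher and 30.1% lower over all genes tested. Their median was 0.36 on the log2 scale, beside -0.35 for all genes tested. Itgb1, which encodes the beta1 subunit shared by most laminin-binding integrins, had 157 and 144 FPKM in ferret against 647 and 648 in mouse libraries (log2 difference -2.10, adjusted p = 9.28e-10 by limma). Its alpha6 partner Itga6 had 37.9 and 40.5 FPKM in ferret against 30.2 and 29.8 in mouse libraries, and was not called (log2 difference 0.37, 95% interval 0.24 to 0.51, with 0.75 after rescaling and 0.74 after quantile normalization). Of this receptor pair, only the beta1 subunit was called, lower in ferret astrocytes.

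Itga1 and Itga2 encode alpha subunits that bind collagens and, less tightly, laminins. Itga1 had 1.67 and 1.38 FPKM in ferret against 18.4 and 18.5 in mouse libraries (log2 difference -2.95, adjusted p = 5.00e-10 by limma). Itga2 had 7.48 and 7.12 FPKM in ferret against 0.716 and 0.677 in mouse libraries (log2 difference 2.29, adjusted p = 1.75e-09 by limma). Itga2 entered the test only through its ferret level. These related subunits thus differed in opposite directions. The other genes called higher, named after their values were seen, were Bcam, Utrn, Sgce and Itgb4, with log2 differences of 1.99, 1.32, 1.30 and 1.26.

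Dystroglycan, encoded by Dag1, binds the alpha chains of laminin and is held to the cytoskeleton by dystrophin (Dmd) or its relative utrophin (Utrn). Dag1 had 39.4 and 40.6 FPKM in ferret against 102 and 104 in mouse libraries (log2 difference -1.34, adjusted p = 9.15e-09 by limma). It kept its sign but was not called after rescaling (-0.95) and after quantile normalization (-0.99). Dmd had 1.88 and 1.83 FPKM in ferret against 49.1 and 49.2 in mouse libraries (log2 difference -4.13, adjusted p = 2.71e-11). Utrn had 39.5 and 39.2 FPKM in ferret against 15.4 and 14.9 in mouse libraries. Utrn was thus above Dmd in both ferret libraries and below it in both mouse libraries. Dtna, named after its values were seen, encodes a dystrobrevin of the same complex and was called lower, with a log2 difference of -1.25. It was not called after rescaling (-0.87) or after quantile normalization (-0.88).

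Most enzymes that build the laminin-binding sugar of dystroglycan were not called. Of 12 genes, all tested, 10 were not called, 1 was called higher and 1 lower, around a median of -0.28 on the log2 scale. Over all 10204 genes tested, 5799 were not called, 13.1% were called higher and 30.1% lower, with a median of -0.35. Rxylt1, which encodes a xylosyltransferase of this chain, had 11.0 and 11.1 FPKM in ferret against 32.6 and 32.4 in mouse libraries (log2 difference -1.48, adjusted p = 7.04e-09 by limma). Pomk, which encodes the kinase of the core sugar, had 14.8 and 15.0 FPKM in ferret against 6.25 and 6.62 in mouse libraries (log2 difference 1.10, adjusted p = 1.54e-07). The other 10 lay within the limit of 1 in either direction.

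Of 12 genes for processing of laminin, collagen and matrix, all tested, 6 were called lower and 1 higher in ferret astrocytes, beside 30.1% and 13.1% of all genes tested. Their median log2 difference was -1.15. Bmp1, a procollagen protease that also trims laminin chains, had 6.99 and 7.37 FPKM in ferret against 48.9 and 47.6 in mouse libraries (log2 difference -2.59). Mmp14, a membrane-bound metalloproteinase that activates the product of Mmp2, had 16.4 and 17.8 FPKM in ferret against 81.2 and 79.2 in mouse libraries (log2 difference -2.17). Mmp2, a gelatinase, had 284 and 320 FPKM in ferret against 71.6 and 72.9 in mouse libraries (log2 difference 2.04). The activator and its substrate thus differed in opposite directions. Adamts1, a protease of proteoglycans, was lower, with a log2 difference of -2.04.

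Markers of other cell types that could be present in such cultures moved with the species as well. In the study's own immunostaining, nearly all cells of both species were counted as astrocytes. The rest were microglia and, in ferret only, neurons. That staining was done in medium with serum, unlike the sequenced cultures. Of the 11 astrocyte markers, Gfap had 1481 and 1522 FPKM in ferret against 1429 and 1546 in mouse libraries, which overlap. Its log2 difference of 0.01 as deposited (95% interval -0.14 to 0.17) became 0.41 after rescaling and 0.81 after quantile normalization (limma adjusted p = 4.78e-05 and 4.70e-08), under the limit of 1. Aqp4 had 24.8 and 21.8 FPKM in ferret against 202 and 210 in mouse libraries. Of these markers, 7 were called lower and 1 higher in ferret astrocytes (S100b, named after its values were seen), with 4 lower and 2 higher after quantile normalization. A mean under 1 FPKM in ferret libraries was found for 1 of the 11, which entered the test only through its mouse level. Over all genes tested 30.1% were called lower and 13.1% higher as deposited. Gfap, which defines the labelled cell type, was thus high in all 4 libraries, while most other astrocyte markers differed between the species.

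Meningeal fibroblasts and vascular cells are known makers of basement membrane. Of 12 meningeal fibroblast markers, 11 were called lower in ferret astrocytes (all but Pdgfra, named after its values were seen), beside 30.1% of all genes tested. Of the 12, 6 had a mean under 1 FPKM in ferret libraries and entered the test only through their mouse level. The summed FPKM of the 12 was 113 to 128 in ferret and 1721 to 1745 in mouse libraries, with 0 of them listed at 0 in both libraries of a species. The highest of them were Serpinf1, at 0.094 and 0.128 FPKM in ferret against 630 and 653 in mouse libraries, Col3a1, at 1.60 and 1.43 against 402 and 375, and Col1a2, at 84.6 and 74.6 against 215 and 205. These markers were low where Nid1, Nid2, Col4a5, Col4a6 and the fibulins were low, and their part in those differences was not tested.

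Of 11 mural cell markers, 9 were in both species and 6 were tested. Of these 6, 4 were called lower (Tagln, Acta2, Pdgfrb and Anpep) and 1 higher (Kcnj8) in ferret astrocytes, beside 30.1% and 13.1% of all genes tested. Anpep and Kcnj8 were named after their values were seen. A mean under 1 FPKM was found for 4 of the 9 in ferret and for 4 in mouse libraries. Those tested among them entered only through their level in the other species. The summed FPKM of the mural markers was 169 to 194 in ferret and 1135 to 1178 in mouse libraries. It was led by Tagln, at 151 and 130 FPKM in ferret against 879 and 906 in mouse libraries, and Rgs5 was listed at 0 in both ferret libraries. Of 10 endothelial markers, 4 were tested and 3 called lower (Cdh5, Esam and Tek, the last named after its values were seen), beside 30.1% of all genes tested. Their summed FPKM was 1.62 to 2.54 in ferret and 31.3 in both mouse libraries. Pecam1, Cdh5 and Tek were listed at 0 in both ferret libraries and Cldn5 in both mouse libraries. In ferret libraries 9 of the 10 endothelial markers had a mean under 1 FPKM. Those tested among them, Cdh5 and Tek included, entered the test only through their mouse level. Cdh5 made up most of the mouse sum, at a mean of 22.2 FPKM. The part of mural and endothelial markers in the differences of the 10 genes was not tested.

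Of 10 microglial markers, 9 were in both species and all 9 were called lower in ferret astrocytes, beside 30.1% of all genes tested. Of the 9, 8 had a mean under 1 FPKM in ferret libraries and entered the test only through their mouse level. The summed FPKM of the 9 was 3.32 to 3.61 in ferret and 621 to 645 in mouse libraries. The highest were Tyrobp, at 0.868 and 0.509 FPKM in ferret against 149 and 142 in mouse libraries, C1qc and C1qb, and Cx3cr1 was listed at 0 in both ferret libraries. Their part in the differences of the 10 genes was not tested. Of 10 markers of Schwann cells and the oligodendrocyte lineage, 9 were in both species and 8 were tested. In ferret astrocytes 5 were called higher by limma (Mbp, Sox10 and Erbb3 among them) and 0 lower, beside 13.1% and 30.1% of all genes tested. All 8 had an adjusted p under 0.05, as did 88.6% of all genes tested. Of the 9, 6 had a mean under 1 FPKM in mouse libraries, and those tested among them entered only through their ferret level. The summed FPKM of the 9 was 262 to 289 in ferret and 57.1 to 57.2 in mouse libraries, with 0 of them listed at 0 in both libraries of a species. Sox10 and Erbb3 were named after their values were seen. Mbp had 28.5 and 33.1 in ferret against 2.95 and 1.78 in mouse libraries. Cnp had 79.9 and 92.0 in ferret against 45.6 and 47.7 in mouse libraries. On FPKM as deposited Cnp was under the limit for a call, and it made up most of the mouse sum. The sum of these markers was higher in the libraries in which Lama4, Lama1 and Lamc1 were high, and their part in those differences was not tested.

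**Figure D5:**
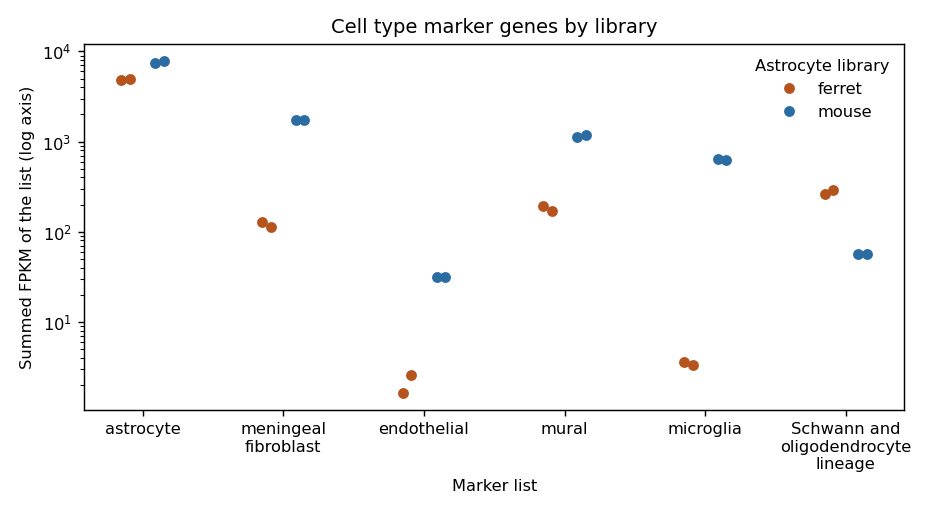
Summed FPKM (log axis) of each list of cell type marker genes in the 2 ferret and the 2 mouse astrocyte libraries. Each point is a library; meningeal fibroblast, endothelial, mural and microglial sums are lower and the Schwann and oligodendrocyte lineage sums higher in both ferret libraries.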

How the data were processed

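RNA-seq libraries of ferret and mouse astrocytes (2 each) had been made with a stranded, polyA-selected kit. Per the labels and the study's methods, the authors aligned reads with STAR 2.7.0f to the Ensembl genome of each species (GRCm38 for the mouse) and deposited FPKM per gene from Cufflinks 2.2.1. FPKM does not give the depth, and read counts that the study lists in its supplement were not used here. The lowest values give only ratios, estimated as the most frequent ratio of the duplicates. By this estimate a fragment was worth 0.853 times as much FPKM in ferret replicate 1 as in replicate 2. The mouse estimate was 1.21 times in replicate 1 as in replicate 2. The most frequent bin held 28.8% of 541 low genes in ferret and 12.5% of 2879 in mouse, so these estimates are rough. The shared symbols summed to 227391 to 236543 FPKM in ferret and 300465 to 308121 in mouse libraries, and duplicates differed by a median absolute log2 value of 0.081 in ferret and 0.065 in mouse libraries.

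Symbols were matched in upper case, and the highest row was used where a symbol had several (7 in ferret, 13 in mouse). The species were compared with limma 3.58.1 in R 4.3.3 (empirical Bayes with trend) on log2(FPKM + 1) for all 10204 genes with a mean of at least 1 FPKM in a species, with Benjamini-Hochberg adjustment over all of them, and the fit was tested on simulated data. Shares and ratios used exact permutation tests (scipy 1.17.1). Gene coordinates are those of GENCODE on GRCm38, in an annotation release other than the authors'. The 10 genes and all lists were chosen with earlier results of these data known. Named were the 10 genes, other laminin chains, up to 4 called genes of each pathway list with the largest differences (or the 2 highest genes where fewer than 2 were called), Col4a1, Col4a2, Itgb1, Itga6, Dag1, Gfap, Aqp4 and up to 3 of the highest genes of each other marker list; all others were chosen after their values were seen, as the text states. Alternatives were a pseudocount of 0.1, no filter, rescaling, quantile normalization, a replicate block, summed rows, no trend and each library left out. Under rescaling and quantile normalization the genes tested were kept the same. Some genes that this rule names are not reported here.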

Additional observations from a re-analysis of the deposited data

How the results depend on the processing

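Of 110 values of the 10 genes under alternatives, 106 kept their sign and their side of the limit for a call. The 4 exceptions were Lama5, at 0.077 after rescaling to the mean library sum and 0.13 after quantile normalization, and Lamb2, at 0.25 and 0.17. Dropping the filter, the replicate block, summed rows and no trend leave these log2 differences the same by construction, so that only the adjusted p could change. Since the libraries of the species did not overlap in any of the 10 genes, leaving out a library could not turn a sign either. Leaving out each library gave log2 differences of 2.57 to 2.59 for Lama1, 2.44 to 2.58 for Lama4, 1.74 to 1.80 for Lamc1, -5.00 to -4.91 for Nid1 and -2.26 to -2.07 for Nid2. In these fits the lone library of a species is assumed to vary like the others. All 60 differences of log2 ratios kept their sign. Here summed rows changed no value, and leaving out a library could not turn a sign because the species did not overlap. The pairing of replicate numbers was checked over genes: deviations of same-numbered libraries had a correlation of 0.01, so no common deviation was seen. A single difference per species cannot decide whether same-numbered libraries shared a preparation or run. With the replicate block, 3 of the 10 genes were called higher and 2 lower, 1342 of all genes higher and 3072 lower (1336 and 3069 without it), and no count of a list changed.

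Of 286 list counts under alternatives, 276 were within 1.5 times the reported count. With a pseudocount of 0.1, 1 other laminin chain (Lama3), 1 collagen (Col15a1) and 1 meningeal fibroblast marker were called higher, against 0 each. After rescaling and after quantile normalization, 2 genes of matrix processing and 2 astrocyte markers were called higher, against 1 each, and 1 meningeal fibroblast marker, against 0. After quantile normalization 4 astrocyte markers were called lower, against 7. Over all genes tested, the share of higher genes among those called was 30.3% as deposited, 46.9% after rescaling and 49.8% after quantile normalization. The cause of these changes was not tested. Only FPKM was used, which does not give the depth, and genes at low FPKM such as Lamc3 and Lamb3 carry no counting interval here.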

Other observations

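Lamb4, a laminin beta chain with a ferret value but no mouse value of that symbol here, stood at 0.038 and 0.089 FPKM in the ferret libraries and entered no comparison.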
